A study of Mus musculus with 32 samples.

Results

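Of the 34453 genes in the table, 9 rod phototransduction genes, chosen by symbol, were followed in libraries of the retinal pigment epithelium (RPE): *Sag*, *Gnat1*, *Gngt1*, *Pde6a*, *Pde6b*, *Pde6g*, *Cnga1*, *Nrl*, and *Rom1*. Each matched 1 Ensembl gene, and all 9 were listed. The mice were labelled *rd1*, 7 at postnatal day 20 (P20) and 9 at postnatal day 40 (P40). AAV-Best1-Nrf2 was given with AAV-Best1-GFP to one eye of each mouse, called the Nrf2 eye, and AAV-Best1-GFP alone to its fellow, called the control eye, which gave 32 libraries. All eyes shared the *rd1* label, subretinal injection soon after birth, and the GFP vector, and none was left uninjected. By the methods, Nrf2 eyes received a higher total vector dose and a second capsid that control eyes did not. Dose and capsid therefore cannot be told apart from Nrf2 in these comparisons. The Best1 promoter is active in the RPE and not in rods, and the vector carried human *NRF2*. The retina had been taken off before RNA was collected from the eyecup. The methods give fewer *rd1* pairs than the labels at both ages and also describe CD1 pairs at P40, and their *rd1* and CD1 pairs at P40 add up to the 9 pairs that the labels call *rd1*. Whether some P40 pairs were CD1, which the study used as wild type, was not tested.

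In a rod, light activates the visual pigment, which activates the G protein transducin. Transducin takes the inhibitory subunit off phosphodiesterase 6, cyclic GMP falls, and the cyclic nucleotide-gated channel closes. The *rd1* allele lies in *Pde6b*, a catalytic subunit of phosphodiesterase 6, and in these mice the rods die within weeks of birth while cones persist longer. The RPE is the epithelium behind the photoreceptors, whose outer segments it engulfs, and it is not known for making phototransduction proteins itself. Nrf2 is a transcription factor that acts on antioxidant genes through the antioxidant response element (ARE). The question asked of these genes was whether rod RNA in the RPE preparations differed between the Nrf2 eye and the control eye of a mouse and between the ages.

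Total counts ran from 16548332 to 50542797 per library. For 2 libraries at P20 the label and the transgene disagreed. Levels are given as CPM, counts scaled to a common library size with TMM factors. Mouse 3 had 1110 CPM of transgene in its library labelled control, while the other control eyes of that age stayed at or below 155 CPM. Mouse 4 had 1096 CPM in its library labelled Nrf2, while the other Nrf2 eyes of that age reached 4882 CPM or more. These 2 libraries were also the closest pair of all, with a squared difference of 8.26 times sampling noise against 48.6 for the next pair. The P20 fits and the age comparisons are therefore also given without both mice. The 12 RPE markers summed to between 11219 and 68773 CPM per library, with none of them at or under 3 counts in any library.

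Of the 9 genes, *Rom1* rose with Nrf2 at both ages, while *Sag*, *Pde6g*, and *Gngt1* fell at P40, so the promoters of *Rom1*, *Sag*, and *Gngt1* are shown first. *Cnga1* is shown with them because its promoter holds the same ARE core as *Rom1* although *Cnga1* did not pass the test in any comparison. The sequences are from RefSeq (GRCm38.p6), 5′ to 3′ on the strand of the gene, and cover 250 bases before to 50 bases after the RefSeq start. That start is the annotated start of the gene for *Rom1* and *Sag*, whereas it lies 1523 bases inside the annotated gene for *Cnga1*, at the start of one of its transcripts, and 216 bases inside for *Gngt1*. Capitals mark the ARE core TGACNNNGC, the homeodomain motif TAATCC bound by Crx, a photoreceptor transcription factor, and TGCTGA, which is one side of the element bound by Nrl. Both strands were searched, so that a match on the other strand appears as its reverse complement. RefSeq entries were matched for 6 of the 9 genes.
Rom1, chr19:8929307-8929606, minus strand: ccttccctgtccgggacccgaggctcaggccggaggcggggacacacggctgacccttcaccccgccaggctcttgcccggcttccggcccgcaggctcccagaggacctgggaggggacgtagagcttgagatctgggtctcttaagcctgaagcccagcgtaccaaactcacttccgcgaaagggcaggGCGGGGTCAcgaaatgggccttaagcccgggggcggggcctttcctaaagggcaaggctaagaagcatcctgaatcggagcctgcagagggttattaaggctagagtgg
Sag, chr1:87803430-87803729, plus strand: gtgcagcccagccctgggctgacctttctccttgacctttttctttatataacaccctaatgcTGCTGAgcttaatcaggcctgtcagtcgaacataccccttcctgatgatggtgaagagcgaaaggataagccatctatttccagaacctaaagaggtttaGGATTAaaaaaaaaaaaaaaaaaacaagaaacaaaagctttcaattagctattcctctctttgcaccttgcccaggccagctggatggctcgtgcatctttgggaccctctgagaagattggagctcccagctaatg
Gngt1, chr6:3993758-3994057, plus strand: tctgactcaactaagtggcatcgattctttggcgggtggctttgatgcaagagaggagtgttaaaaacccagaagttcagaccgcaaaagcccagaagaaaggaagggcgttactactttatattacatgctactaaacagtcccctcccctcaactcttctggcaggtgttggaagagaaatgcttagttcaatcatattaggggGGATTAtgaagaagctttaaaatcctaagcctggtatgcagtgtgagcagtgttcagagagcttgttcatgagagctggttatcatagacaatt
Cnga1, chr5:72642703-72643002, minus strand: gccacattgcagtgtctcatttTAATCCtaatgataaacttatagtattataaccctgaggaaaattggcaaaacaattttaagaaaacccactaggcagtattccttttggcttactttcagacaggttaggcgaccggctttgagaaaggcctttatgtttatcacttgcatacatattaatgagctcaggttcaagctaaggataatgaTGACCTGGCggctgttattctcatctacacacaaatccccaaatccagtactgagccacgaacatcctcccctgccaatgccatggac

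In *Rom1* the ARE core begins 59 bases before the RefSeq start and reads TGACCCCGC on the other strand. In *Cnga1* it begins 38 bases before the RefSeq start, which places it within the annotated gene, and reads TGACCTGGC. The ARE core was found in 12.4% of 32851 promoters of the same length, TAATCC in 7.06%, and TGCTGA in 19.5%. TAATCC was found in *Sag*, *Gngt1*, and *Cnga1*, and TGCTGA in *Sag* and *Pde6b*, and no match overlapped another. None of the 3 motifs was found in the *Nrl* window. The matches describe letters and were not tested for binding.

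*Sag* (chr1:87803680-87845158, plus strand, GRCm38, as for all genes here) encodes arrestin 1, which binds the activated visual pigment and ends its signal. It is abundant in rods and in mice is also made by cones. At P20, control eyes held 6.97 to 231 CPM of *Sag* (median 58.4) and Nrf2 eyes 1.33 to 31.8 CPM (median 2.23). At P40, control eyes held 43.0 to 428 CPM (median 79.2) and Nrf2 eyes 1.78 to 30.2 CPM (median 3.77). The groups overlapped at P20 and did not overlap at P40. *Sag* was lower in the Nrf2 eye of 7 of 7 mice at P20 and 9 of 9 at P40, where 2.91% and 1.17% of all genes tested were lower in every mouse. The medians differed 26.2-fold at P20 and 21.01-fold at P40. The fitted log2 fold change was −4.95 at P40 (SE 0.60, adjusted *P* = 0.000459, edgeR) and −3.80 at P20 (SE 1.04, adjusted *P* = 0.0950), where it did not pass 0.05.

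**Figure D1:**
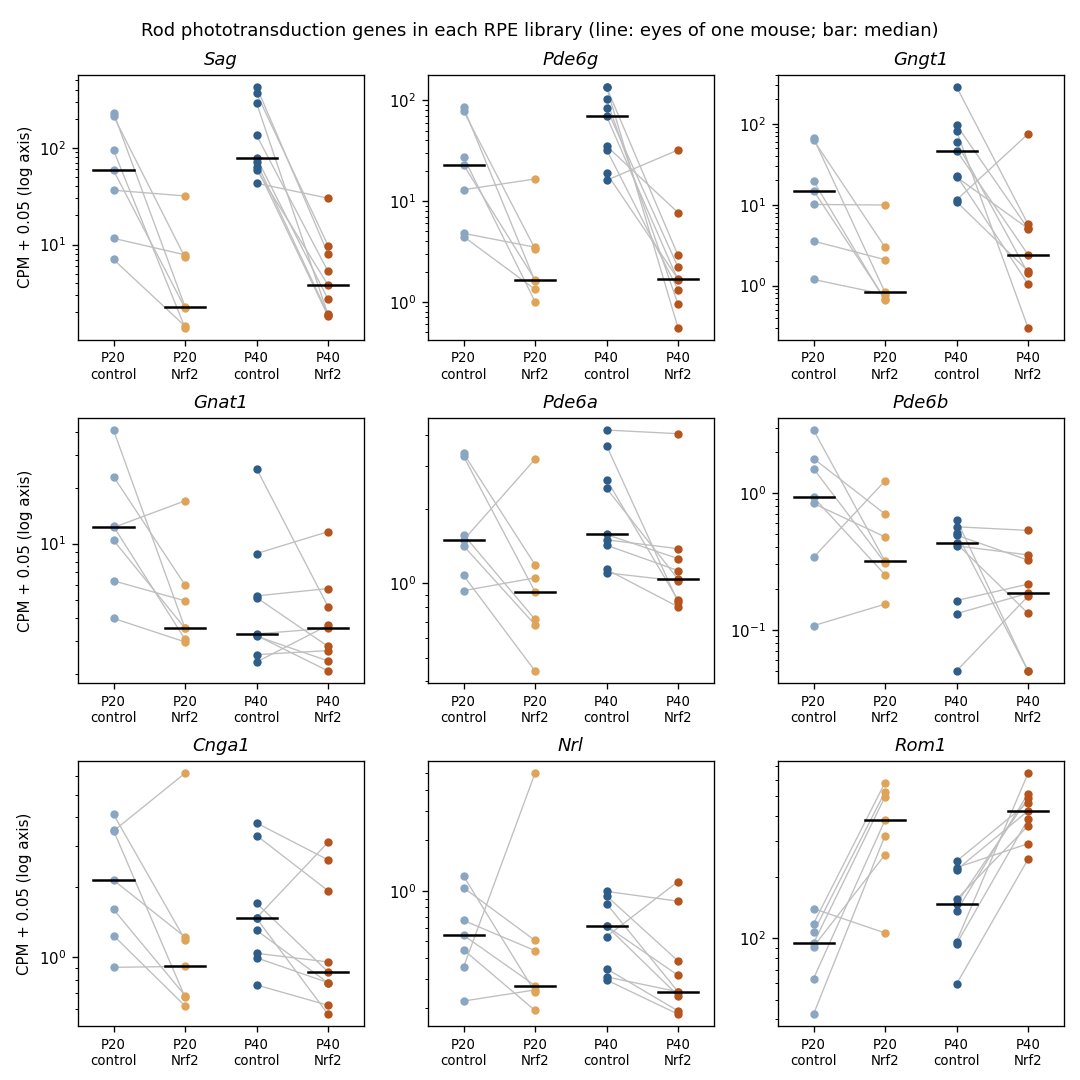
CPM plus 0.05 on log axes for each of the 9 genes, with 1 point per library, gray lines joining the eyes of a mouse, and black bars at group medians. *Sag* and *Rom1* show no overlap between control and Nrf2 eyes at P40, in opposite directions, while *Gnat1* medians at P40 are 3.22 CPM in control eyes and 3.45 CPM in Nrf2 eyes.

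A lower level could come from fewer rods, fewer cones, less RNA per cell, or less retina left on the eyecup at dissection. These cannot be told apart in RNA from a whole preparation. In retinal flat mounts of other *rd1* eyes, the study reported less cratering of the cone layer with AAV-Best1-Nrf2. It also reported a small improvement in the ratio of central to total cones. Sampling intervals from counts would cover counting error only, since the RNA had been amplified.

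*Gngt1* (chr6:3993792-3997436, plus strand) encodes the γ subunit of rod transducin, and *Gnat1* (chr9:107674474-107679712, minus strand) its α subunit. *Gngt1* ran from 1.14 to 66.3 CPM in control eyes at P20 (median 14.9) and from 0.607 to 9.85 CPM in Nrf2 eyes (median 0.775). At P40 it ran from 10.8 to 285 CPM in control eyes (median 46.5) and from 0.252 to 74.8 CPM in Nrf2 eyes (median 2.37). The groups overlapped at both ages, at P40 because mouse 6 went the other way. In that mouse *Gngt1* was 11.4 CPM in the control eye and 74.8 CPM in the Nrf2 eye, and the other 8 mice were lower with Nrf2. The log2 fold change was −4.18 at P40 (SE 0.93, adjusted *P* = 0.0216) and −3.22 at P20 (SE 0.99, adjusted *P* = 0.136). The call at P40 was lost when mouse 1, 2, 3, 5, or 7 was left out, with adjusted *P* between 0.0598 and 0.0663, and without a block for the mouse (−2.74, adjusted *P* = 0.159).

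*Gnat1* was called at neither age. At P20 it was 3.91 to 40.7 CPM in control eyes (median 12.2) and 2.91 to 16.9 CPM in Nrf2 eyes (median 3.45). The corresponding values at P40 were 2.26 to 25.3 CPM (median 3.22) and 2.01 to 11.5 CPM (median 3.45), so that the groups overlapped at both ages. At P20, 6 of 7 mice had less *Gnat1* in the Nrf2 eye, and the fitted log2 value was −1.36 (SE 0.47, adjusted *P* = 0.178). At P40, 4 mice had less and 5 had more, and the fitted log2 value was −0.35 (SE 0.33, adjusted *P* = 0.777). Thus the transducin subunits had medians that differed 19.6-fold between the eyes for *Gngt1* and 0.932-fold for *Gnat1* at P40. The difference between these genes was not tested.

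*Pde6g* (chr11:120447605-120453500, minus strand) encodes the inhibitory subunit of phosphodiesterase 6, and *Pde6a* and *Pde6b* its catalytic subunits. *Pde6g* was 4.40 to 85.0 CPM in control eyes at P20 (median 22.8) and 0.954 to 16.5 CPM in Nrf2 eyes (median 1.605). At P40 it was 15.99 to 136 CPM in control eyes (median 69.5) and 0.504 to 32.1 CPM in Nrf2 eyes (median 1.63). Mouse 2 at P20 and mouse 6 at P40 had more *Pde6g* in the Nrf2 eye, and the other 6 and 8 mice had less. The log2 fold change was −4.78 at P40 (SE 0.88, adjusted *P* = 0.00754) and −3.11 at P20 (SE 0.90, adjusted *P* = 0.114).

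The catalytic subunits were scarce in every group. *Pde6a* lay between 0.391 and 4.15 CPM in all libraries, with medians of 1.45 CPM in control eyes and 0.875 CPM in Nrf2 eyes at P20, and of 1.53 and 0.992 CPM at P40. It was lower with Nrf2 in 5 of 7 mice at P20 and in 9 of 9 at P40, the smallest difference at P40 being −0.05 on the log2 scale, in mouse 3. Its log2 fold changes of −0.88 (SE 0.44, adjusted *P* = 0.335) and −0.77 (SE 0.32, adjusted *P* = 0.321) did not pass the threshold. *Pde6b* had medians of 0.878 and 0.267 CPM in control and Nrf2 eyes at P20 and of 0.377 and 0.135 CPM at P40. It was at or under 3 counts in 1 control and 1 Nrf2 eye at P20 and in 3 of each at P40, with 0 counts in 1 control and 2 Nrf2 eyes at P40, where 3 counts correspond to at most 0.170 CPM. *Pde6b* log2 fold changes with Nrf2 were −1.24 at P20 (SE 0.69, adjusted *P* = 0.379) and −0.91 at P40 (SE 0.82, adjusted *P* = 0.774).

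Since *Pde6b* (chr5:108388391-108432397, plus strand) carries the *rd1* allele, it was set against *Pde6a* within each library, as the log2 ratio of counts plus 0.5. The median ratio was −0.79 in control eyes at P20 (−3.66 to 0) and −2.81 in control eyes at P40 (−6.27 to −0.83). In Nrf2 eyes it was −1.65 at P20 (−3.48 to 1.53) and −2.47 at P40 (−6.44 to −0.70). The ranges overlapped between all 4 groups, and at P40 the low ends come from libraries with 0 counts of *Pde6b*. Without P20 mice 3 and 4 the medians at P20 were −0.79 in control and −0.55 in Nrf2 eyes.

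*Cnga1* (chr5:72603696-72644275, minus strand), a subunit of the rod cyclic nucleotide-gated channel, had medians of 2.10 CPM in control eyes and 0.865 CPM in Nrf2 eyes at P20, and of 1.42 and 0.818 CPM at P40. The groups overlapped at both ages, between 0.520 and 6.14 CPM over all libraries. *Nrl* (chr14:55518978-55524981, minus strand), the transcription factor that sets rod fate, was lower still, with medians of 0.495 and 0.223 CPM at P20 and of 0.567 and 0.201 CPM at P40. Neither gene passed the test with Nrf2. *Cnga1* had log2 fold changes of −0.98 (SE 0.44, adjusted *P* = 0.286) and −0.53 (SE 0.32, adjusted *P* = 0.582), and *Nrl* of −0.61 (SE 0.75, adjusted *P* = 0.708) and −0.85 (SE 0.38, adjusted *P* = 0.372).

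*Rom1* (chr19:8927391-8929356, minus strand) encodes a tetraspanin of the outer segment disc rim, the partner of the product of *Prph2*, and was the only one of the 9 genes with a fitted increase in Nrf2 eyes, at both ages. Control eyes held 42.3 to 140 CPM at P20 (median 94.4) and Nrf2 eyes 106 to 583 CPM (median 381). At P40 control eyes held 59.5 to 239 CPM (median 148) and Nrf2 eyes 245 to 647 CPM (median 423). The groups overlapped at P20 and did not at P40. *Rom1* was higher with Nrf2 in 6 of 7 mice at P20 and in 9 of 9 at P40, where 3.36% of all genes tested were higher in every mouse. The exception was mouse 4 at P20, whose library labelled Nrf2 is one of those named above, with 140 CPM in the control and 106 CPM in the Nrf2 eye. Without that mouse, left out after its values were seen, the highest control eye at P20 held 118 CPM and the lowest Nrf2 eye 257 CPM. The share of all genes without overlap in the remaining P20 mice was not counted. The log2 fold change was 1.97 at P20 (SE 0.36, adjusted *P* = 0.0252) and 1.51 at P40 (SE 0.25, adjusted *P* = 0.00343), and without P20 mice 3 and 4 it was 2.30 at P20 (adjusted *P* = 0.00360). The call at P20 was lost when mouse 1, 2, 3, 5, 6, or 7 was left out, with log2 fold changes of 1.82 to 2.05 and adjusted *P* between 0.0539 and 0.0967.

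At P20, 1 of the 9 genes was therefore called (*Rom1*, higher), where 3.41% of 16303 genes tested were called in either direction and 2.93% higher. At P40, 4 were called (*Rom1* higher, and *Sag*, *Pde6g*, and *Gngt1* lower), where 4.57% of 16686 genes were called, 3.33% higher and 1.23% lower. The median log2 fold change of the 9 genes was −1.24 at P20 and −0.85 at P40, against −0.04 and −0.03 over all genes tested. Groups without overlap were seen at P40 for *Sag*, lower, where 0.114% of all genes had this pattern, and for *Rom1*, higher, where 1.16% did. The P20 count depended on the method, with 5 genes called by DESeq2 and 5 by limma voom with quality weights per library (limma voom in what follows), in both cases *Rom1* with *Sag*, *Gnat1*, *Pde6g*, and *Gngt1*. It was 4 without a block for the mouse and 2 in one fit over all 32 eyes. Without P20 mice 3 and 4 it stayed at 1, *Rom1*. The log2 fold changes at P20 were then −3.88 for *Sag* (adjusted *P* = 0.165), −3.50 for *Gngt1* (0.152), −3.06 for *Pde6g* (0.187), and −1.44 for *Gnat1* (0.226), and those of *Pde6b*, *Cnga1*, *Pde6a*, and *Nrl* ran from −1.11 to −0.69 with adjusted *P* values of 0.359 to 0.777.

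**Figure D2:**
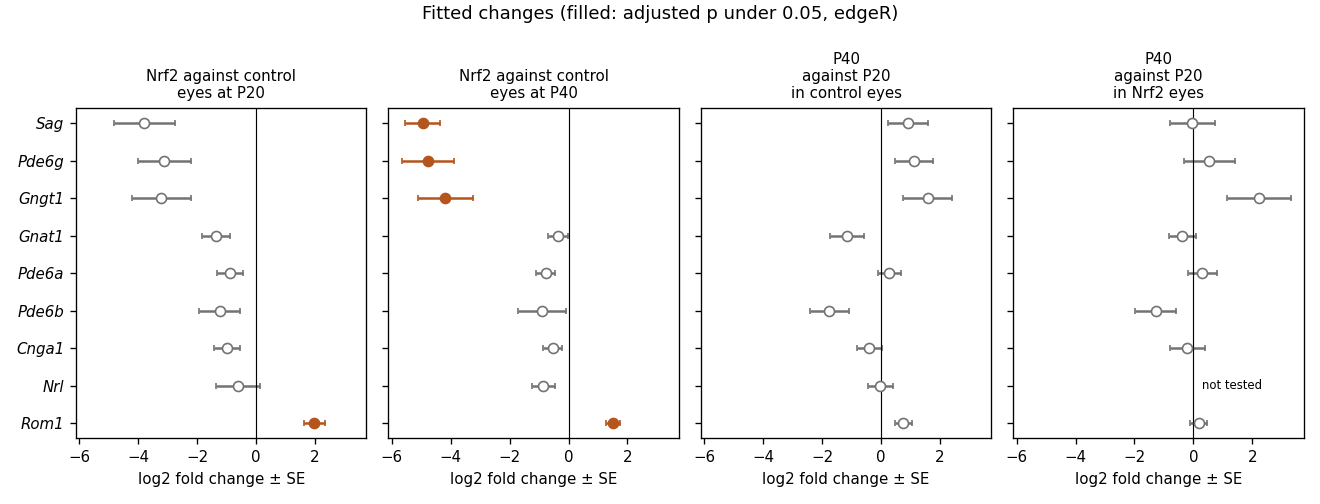
Log2 fold changes fitted by edgeR for the 9 genes in 4 comparisons, with bars of 1 SE and filled points where the adjusted *P* value was under 0.05. Filled points are *Rom1* at P20 and *Rom1*, *Sag*, *Pde6g*, and *Gngt1* at P40, and neither age comparison holds a filled point.

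With age, none of the 9 genes passed the edgeR test. The titles number the P20 and the P40 libraries in separate series, coded M and A, whose meaning the labels do not give, so age and series cannot be told apart, and neither can age and strain if some P40 pairs were CD1. Between P20 and P40, control eyes showed log2 fold changes of 0.92 for *Sag* (SE 0.69, adjusted *P* = 0.352), 1.12 for *Pde6g* (SE 0.63, adjusted *P* = 0.216), and 1.58 for *Gngt1* (SE 0.82, adjusted *P* = 0.176). For these genes the medians in control eyes were thus not lower at P40 than at P20, the age by which more rods have died in *rd1*. *Pde6b* had the lowest value, −1.75 (SE 0.66, adjusted *P* = 0.0753), followed by *Gnat1* at −1.16 (SE 0.57, adjusted *P* = 0.153). *Rom1* was at 0.75 (SE 0.29, adjusted *P* = 0.0798), and *Pde6a*, *Cnga1*, and *Nrl* were at 0.29, −0.39, and −0.03. Of the 9 genes, 0 were called by edgeR, where 14.8% of 16832 genes were, 2 had an unadjusted *P* value under 0.05, and 2 were called by DESeq2 (*Pde6b* and *Rom1*) and 1 by limma voom (*Gnat1*). Without the control eye of P40 mouse 8, which held 25.3 CPM of *Gnat1*, edgeR called *Gnat1* (−1.83, adjusted *P* = 0.0229) and *Rom1* (0.85, adjusted *P* = 0.0424). Without P20 mice 3 and 4 the count was 0.

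In Nrf2 eyes, 8 of the genes could be tested between the ages, since *Nrl* did not reach the minimum count. The values ran from −1.29 for *Pde6b* (SE 0.70, adjusted *P* = 0.248) to 2.21 for *Gngt1* (SE 1.09, adjusted *P* = 0.207). *Sag* was at −0.04 (SE 0.76, adjusted *P* = 0.980) and *Rom1* at 0.19 (SE 0.29, adjusted *P* = 0.708). edgeR, DESeq2, and limma voom each called 0 of them, none had an unadjusted *P* value under 0.05, and edgeR called 0.502% of 16745 genes. The comparisons in control and in Nrf2 eyes use the same mice.

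The change of the Nrf2 effect between the ages was tested as an interaction over all 32 libraries. edgeR, DESeq2, and limma voom each called 0 of the 9 genes, and none had an unadjusted *P* value under 0.05, where edgeR called 0.00557% of 17959 genes. The log2 difference of the effect, P40 minus P20, was −1.13 for *Sag* (SE 1.11), −1.64 for *Pde6g* (SE 1.26), −0.93 for *Gngt1* (SE 1.38), 1.01 for *Gnat1* (SE 0.57), and −0.46 for *Rom1* (SE 0.43). That 3 genes were called lower at P40 and not at P20 was thus not shown to be a difference between the ages.

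The levels were compared between genes per kilobase of exon. *Rom1* stood first in every group, with medians of 62.2 and 251 CPM per kilobase in control and Nrf2 eyes at P20 and of 97.5 and 279 at P40. In Nrf2 eyes this exceeded 98.7% of expressed genes at P20 and 98.8% at P40. *Sag*, *Pde6g*, and *Gngt1* followed in control eyes, at 33.99, 25.3, and 12.6 CPM per kilobase at P20 and at 46.1, 77.3, and 39.3 at P40. The order of these 3 genes differed between the ages and their ranges overlapped. In Nrf2 eyes they lay between 0.655 and 2.19 CPM per kilobase, next to *Gnat1* at 1.48 at both ages. *Cnga1*, *Pde6a*, *Pde6b*, and *Nrl* were last in all 4 groups, at 0.766 CPM per kilobase or less.

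Across the 16 control eyes, 3 genes kept together. Spearman's ρ of log2 CPM was 0.93 between *Sag* and *Pde6g*, 0.88 between *Sag* and *Gngt1*, and 0.97 between *Pde6g* and *Gngt1*. In the 16 Nrf2 eyes the same values were 0.74, 0.84, and 0.70. A different set, *Gnat1*, *Cnga1*, and *Nrl*, had values of 0.51 to 0.74 with each other in control eyes and of 0.58 to 0.86 in Nrf2 eyes. *Gnat1* had a ρ of −0.20 with *Sag* in control eyes and of 0.62 in Nrf2 eyes. *Rom1* had a ρ of 0.72 with *Sag* in control eyes and of −0.56 in Nrf2 eyes. Each set of 16 eyes pools P20 and P40. With each group centered on its mean, over 32 libraries, ρ was 0.47 for *Sag* with *Gnat1* and 0.06 for *Sag* with *Rom1*. Among *Sag*, *Pde6g*, and *Gngt1* it was then 0.87 to 0.88. These values describe libraries that share mice and scaling, and the differences between them were not tested.

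**Figure D3:**
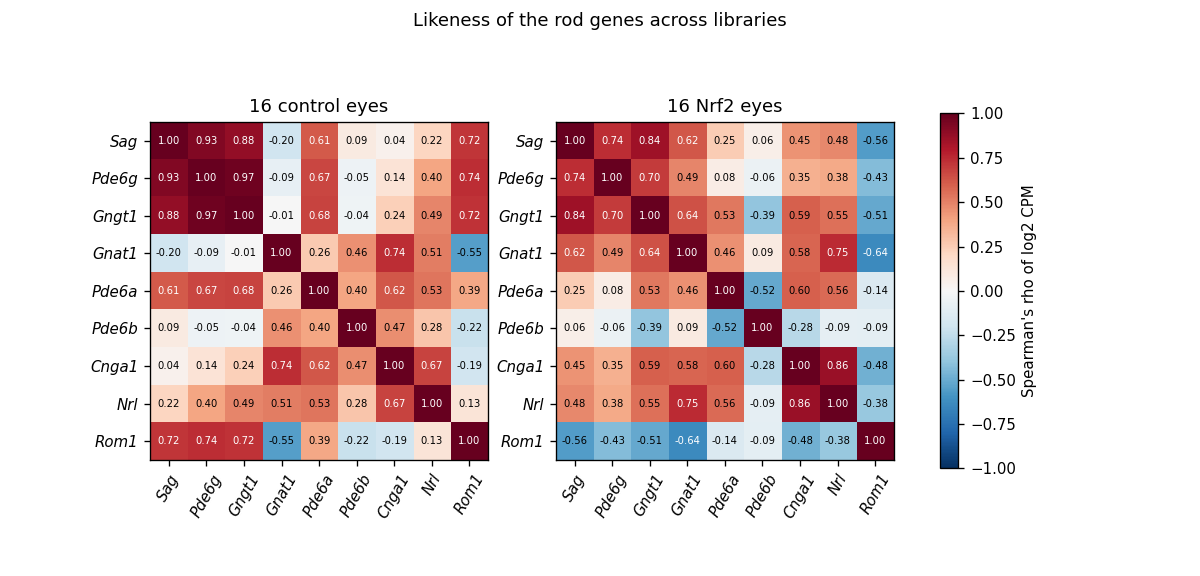
Spearman's ρ of log2 CPM between the 9 genes over 16 control eyes (left) and 16 Nrf2 eyes (right), with color from −1 (blue) to 1 (red). Each panel pools P20 and P40. *Sag*, *Pde6g*, and *Gngt1* form a red block in both panels, and *Rom1* with *Sag* changes from 0.72 to −0.56.

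Genes outside the fixed lists whose pattern over the 32 libraries was most like the mean of the 9 genes were *Dixdc1* (ρ 0.82), *Car2* (0.81), *Kcnma1* (0.81), *Wdr31* (0.80), and *Snap25* (0.80), the first 5 of 11736 candidates. With *Sag* alone, a choice made after the values were seen and with the lists left in, they were *Prph2* (0.96), *Arr3* (0.95), *Opn1sw* (0.95), *Opn1mw* (0.94), and *Pde6h* (0.93). Of these, *Arr3*, *Opn1sw*, *Opn1mw*, and *Pde6h* encode cone arrestin, the cone opsins, and an inhibitory cone phosphodiesterase subunit, and with each group centered on its mean they kept values of 0.83 to 0.90. With *Rom1* alone the most alike were *Cntnap2* (0.99), *Ush1c* (0.97), and *Adssl1* (0.96), and *Nqo1*, which encodes a quinone reductase, was among the first 8 (0.95).

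*Rom1* was also set against the transgene over the 16 Nrf2 eyes, 1 of 9 such relations, computed after the levels had been seen. Pearson's r of the log2 levels was 0.95 (permutation *P* = 0.00001, the smallest that 100000 resamples allow, adjusted 0.00009) and Spearman's ρ was 0.89 (permutation *P* = 0.00004, adjusted 0.00036), both two-sided. Without the 2 eyes farthest from the median transgene level, P20 mouse 4 and P40 mouse 8, r was 0.84. Within the ages ρ was 0.93 at P20 and 0.82 at P40, and without P20 mice 3 and 4 r was 0.88. For *Sag* r was −0.41 (permutation *P* = 0.116, adjusted 0.381) and ρ −0.49 (permutation *P* = 0.0552, adjusted 0.166), and none of the other 8 genes passed 0.05 after adjustment. Both levels come from the same library and share its scaling.

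**Figure D4:**
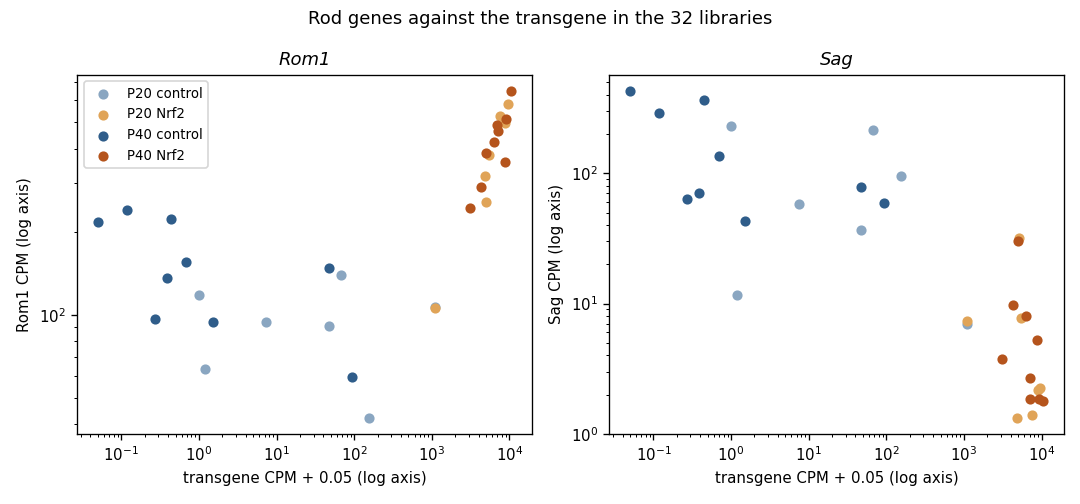
*Rom1* (left) and *Sag* (right) CPM against transgene CPM plus 0.05 in the 32 libraries, log axes, colored by group. Over the 16 Nrf2 eyes *Rom1* is higher where the transgene is higher (r 0.95), and the pair of points at 1096 and 1110 CPM of transgene are the P20 libraries that went against their labels.

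A list of 28 other genes of the rod pathway was counted in the same fits. At P20, 27 were tested and 1 was called, *Tulp1*, a tubby-like protein of photoreceptors, lower (−1.63, SE 0.25, adjusted *P* = 0.0145), with a median log2 fold change of −0.88. At P40, 26 were tested and 9 were called, all lower: *Aipl1*, *Crx*, *Grk1*, *Guca1a*, *Pdc*, *Prph2*, *Rcvrn*, *Rpgrip1*, and *Slc24a1*. Their median was −1.04, and the lowest values were −5.63 for *Pdc* (SE 0.96, adjusted *P* = 0.00456), which encodes phosducin, and −4.84 for *Rcvrn* (SE 0.81, adjusted *P* = 0.00398), which encodes recoverin. *Pdc* had 0 counts in 4 of the 9 Nrf2 eyes at P40, so its fitted value depends on the prior count. The highest values were 0.68 for *Prom1* (SE 0.31, adjusted *P* = 0.392) and 0.23 for *Cngb1* (SE 0.53, adjusted *P* = 0.946), the channel partner of *Cnga1*. The list is not limited to genes specific to rods, and *Crx*, *Rcvrn*, and *Prph2* are among those shared by rods and cones. The part of cone RNA in the 9 calls was not tested. With age in control eyes 6 of 27 were called, *Tulp1*, *Guca1a*, *Rpgrip1*, and *Pde6d* higher and *Nr2e3* and *Cngb1* lower. *Nr2e3* encodes a nuclear receptor of rods downstream of Nrl, and it was at −2.54 (SE 0.75, adjusted *P* = 0.0375). In Nrf2 eyes 1 of 26 was called with age, *Tulp1*, higher. Over all genes tested, 3.41% were called with Nrf2 at P20 and 4.57% at P40, where 1.23% were lower. With age, 14.8% were called in control eyes and 0.502% in Nrf2 eyes. The count of 1 of 27 at P20 was near its share.

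Cone markers were also lower in Nrf2 eyes, except that their sum was higher in the Nrf2 eye of P40 mouse 6. All 10 cone genes fitted lower with Nrf2 at both ages, 3 of them called at P20 and 10 at P40, with median log2 fold changes of −2.45 and −3.28. They summed to 49.4 to 985 CPM in control eyes and 21.3 to 97.0 CPM in Nrf2 eyes at P20, and to 291 to 2228 CPM and 34.4 to 325 CPM at P40. No cone marker was at 0 in any library, and *Cnga3* was at or under 3 counts in 1 Nrf2 eye at P20. With age in control eyes all 10 fitted higher, with a median of 1.20, 0 called by edgeR, and 4 with an unadjusted *P* value under 0.05. The 8 rod genes other than *Rom1* summed to medians of 110 and 10.4 CPM in control and Nrf2 eyes at P20 and of 216 and 19.8 CPM at P40. The part of cone RNA in the levels of *Sag*, *Pde6g*, and *Gngt1* was not tested.

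Markers of other cell types were counted in the same way. Of 16 inner retina markers, 0 of 14 tested were called with Nrf2 at either age, with 3 and 2 at an unadjusted *P* value under 0.05, and their sums, led by a few abundant genes such as *Trpm1*, overlapped, at 1011 to 2639 CPM and 1570 to 2403 CPM at P20 and at 850 to 1630 CPM and 906 to 2310 CPM at P40. Gene by gene, 11 of the 14 fitted lower with Nrf2 at P20, with a median log2 fold change of −0.71, and 8 of 14 at P40, with a median of −0.10. *Slc32a1*, an inhibitory neuron transporter, was at 0 in 17 of the 32 libraries. Of 8 Müller glia markers 0 were called with Nrf2 at either age, with 3 and 1 at an unadjusted *P* value under 0.05. They summed to 1263 to 3840 CPM over all libraries. *Car14* and *Dkk3* led these sums, with group medians of 804 CPM or more, while *Aqp4* and *Kcnj10* had group medians of 14.7 CPM or less. Of the 8 markers, 6 fitted lower at P20 (median −0.35) and 4 at P40 (median −0.11). Of 12 RPE markers, *Rpe65* was called lower at P20, and *Rpe65*, *Lrat*, *Rgr*, *Rdh5*, and *Rlbp1* at P40. Over all genes tested, 79 of 16303 were called lower at P20 and 206 of 16686 (1.23%) at P40. Of the RPE markers, 6 of 12 fitted lower at P20 (median −0.08) and 10 of 12 at P40 (median −0.60). The part of these lists in the rod gene levels was not tested.

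**Figure D5:**
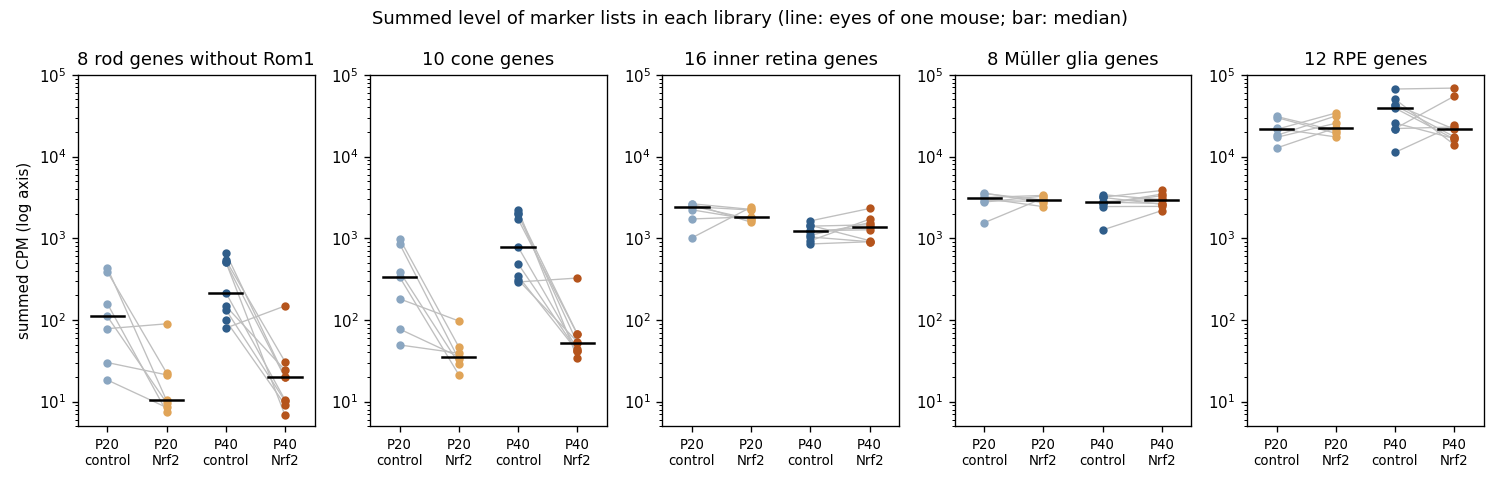
Summed CPM (log axes) of the 8 rod genes without *Rom1* and of 4 marker lists in each library, with gray lines joining the eyes of a mouse and black bars at medians. Rod and cone medians both fall from control to Nrf2 eyes, with cone medians of 334 and 35.4 CPM at P20 and 782 and 52.5 CPM at P40. Both sums rise in P40 mouse 6 (rod 79.4 to 148 CPM, cone 291 to 325 CPM), and the rod sum rises in P20 mouse 2 (78.2 to 89.6 CPM). RPE medians are 21504 and 22376 CPM at P20 and 39139 and 21612 CPM at P40. The ranges of control and Nrf2 eyes overlap in every panel at both ages.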

How the data were processed

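RNA from the RPE of 16 mice, 1 library per eye, was amplified and sequenced by the authors in 2 runs that the labels do not assign to libraries. The sample titles number the ages in separate series, M at P20 and A at P40, whose meaning the labels do not give. According to the methods, they aligned reads with STAR to mm10 and counted with featureCounts, and in parallel estimated isoforms with Salmon for DESeq2. The labels name Salmon 0.9.1. The authors deposited whole-number estimated counts for each gene, without any normalization, in a table that does not name its counter. Of 34453 rows, 34401 matched a symbol and 4268 were 0 throughout. Symbols, positions, and exon lengths were from GRCm38 annotation. No annotated gene shared exon bases with any of the 9 genes.

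Tests used edgeR 4.0.16 under R 4.3.3 (filterByExpr, TMM, quasi-likelihood test, Benjamini-Hochberg adjustment over all genes tested, threshold 0.05). Nrf2 and control eyes were compared with the mouse as a block, ages without one, and the interaction over 32 libraries with the block. CPM used TMM factors over 32 libraries, and log2 CPM a prior count of 2. Alternatives were DESeq2 1.42.0, voom with quality weights per library (limma 3.58.1), RLE factors, robust dispersion, no filter, at least 10 counts in every library, other blocks, and leaving out mice or eyes. Libraries held 16548332 to 50542797 counts, where 3 counts are 0.0578 to 0.170 CPM. The pairing comes from the labels and methods. As a check, deviations from group means were correlated between the eyes of each mouse (mean r 0.0214 for P20 mice, 0.0991 for P40 mice). Between eyes of different mice the mean r was −0.00055 at P20 and −0.0065 at P40. Only 3 of 7 mice at P20 and 3 of 9 at P40 had an r over 0.1, and the lowest were −0.27 and −0.35. The check therefore did not establish the pairing. All tests were tried on simulated counts first. The 9 genes, the gene lists, and the tests were chosen with earlier results of these data known. All 9 genes were named. Other rod pathway genes were the fixed list, with the 2 highest and 2 lowest log2 fold changes as examples, and likeness was ranked by Spearman's ρ among genes with a mean log2 CPM of at least 2.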

Additional observations from a re-analysis of the deposited data

Results flagged for a closer look

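Of 36 groups of values (9 genes in 4 groups of eyes), 14 had a highest eye that stood apart from the next by Dixon's criterion, applied to CPM. The criterion is set so that about 1 of 20 independent groups of normally distributed values meets it. CPM were not shown to be normal and the groups share libraries, so the 14 cannot be set against that rate. In the Nrf2 eye of P20 mouse 2, this held for 7 genes: *Sag* (31.8 CPM, next 7.78), *Gnat1* (16.9, next 5.94), *Pde6a* (3.15, next 1.14), *Pde6g* (16.5, next 3.43), *Cnga1* (6.14, next 1.17), *Nrl* (4.95, next 0.457), and *Gngt1* (9.85, next 2.93). The same eye had the highest cone sum of the Nrf2 eyes at P20, 97.0 CPM. In the Nrf2 eye of P40 mouse 6 it held for *Sag* (30.2 CPM, next 9.71), *Pde6g* (32.1, next 7.64), and *Gngt1* (74.8, next 5.68). That eye had a cone sum of 325 CPM and an inner retina sum of 2310 CPM, the highest of the Nrf2 eyes at P40. The bipolar cell genes *Grm6* and *Pcp2*, singled out after their values were seen, were at 114 and 655 CPM, against at most 59.9 and 64.4 CPM in any other library. *Trpm1*, also on the inner retina list, was at 194 CPM in that eye, the lowest of the Nrf2 eyes at P40. In the control eye of that mouse it was at 1020 CPM. *Trpm1* was at 134 CPM or more in every library, whereas *Grm6* had group medians of 0.348 to 1.28 CPM. Whether *Trpm1* followed bipolar cell RNA in these libraries was not tested.

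In the Nrf2 eye of P40 mouse 3, *Gnat1* (11.5 CPM, next 5.68) and *Pde6a* (4.01, next 1.33) stood apart. In the control eye of that mouse, *Gngt1* did (285 CPM, next 96.0). In the control eye of P40 mouse 8, *Gnat1* did (25.3 CPM, next 8.78). What set these eyes apart was not tested.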

How the results depend on the processing

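At P40 the calls of *Sag*, *Pde6g*, and *Rom1* held in all 18 settings run for each, the reported one included, that of *Gngt1* in 12 of 18, and the count of rod genes called was 3 without the replicate block and 3 to 4 with a mouse left out. At P20 the count of 1 became 5 by DESeq2, 5 by limma voom with quality weights per library (limma voom below), 4 without the replicate block, 2 in one fit over 32 eyes, and 0 to 1 with a mouse left out. With age in control eyes the count of 0 became 2 by DESeq2, 1 by limma voom, and 0 to 2 with an eye left out. Over all genes, the 556 called at P20 became 1951 by DESeq2, 2605 by limma voom, 348 without a filter, and 1093 without the replicate block, and the 762 at P40 became 1380 and 1327 by DESeq2 and limma voom. With age, the 2483 in control eyes became 4383, 3747, 914 without a filter, and 158 without P20 mice 3 and 4, and the 84 in Nrf2 eyes became 1832, 2213, 31, and 20 in that order, and 496 in one fit over 32 eyes. The 1 called for the interaction became 12 by DESeq2. The block came from the labels and methods. It changed no call of a rod gene in the interaction.

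Log2 fold changes turned sign for *Nrl* at P20 without the replicate block (0.67) and with age in control eyes by limma voom (0.28), with RLE factors (0.0028), and with an eye left out (−0.21 to 0.25). With age in Nrf2 eyes they turned for *Sag* by limma voom (0.16), without a filter (0.0027), and with an eye left out (−0.82 to 1.05), and for *Pde6g* by limma voom (−0.14) and with an eye left out (−0.79 to 1.59). With an eye left out they also turned there for *Cnga1* (−0.50 to 0.74), *Gnat1* (−0.75 to 0.20), *Pde6a* (−0.14 to 0.83), and *Rom1* (−0.0044 to 0.32). For the interaction they turned without the replicate block for *Pde6a* (−0.0050) and *Gngt1* (0.61), and with a mouse left out for *Nrl* (−0.59 to 0.31), *Pde6a* (−0.060 to 0.44), and *Pde6b* (−0.053 to 0.80). None of these values passed the threshold, and the cause was not tested. The ratio of *Pde6b* to the other 8 genes in place of *Pde6a* moved the medians to −8.00 and −10.18 at P20 and to −10.52 and −11.64 at P40, by its construction.

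The labels number the Nrf2 and control libraries, and equal numbers at an age were taken as the eyes of 1 mouse, following the methods. On that reading *P* values cover the spread between mice, but the check of the pairing did not establish it. *Pde6b* was at or under 3 counts in 1 control and 1 Nrf2 eye at P20 and in 3 of each at P40.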
